A study of Rattus norvegicus with 6 samples.

Results

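The genes described here are 10 regulators of the first gap phase of the cell cycle: the D-type cyclins Ccnd1, Ccnd2 and Ccnd3, their kinases Cdk4 and Cdk6, and the CDK inhibitors Cdkn1a, Cdkn1b, Cdkn2a, Cdkn2b and Cdkn2c. They were chosen by name as a pathway, with earlier results of these data known, and every probe set annotated with 1 of these symbols and no other was taken. This gave 15 probe sets among the 31042 probe sets tested, and 10 of the 14217 genes named by at least 1 probe set. Of the 10 genes, 6 had 1 probe set, 3 had 2 and 1, Ccnd1, had 3. The data are 6 one-colour Affymetrix 3' arrays of LN4D6, a rat mammary tumour cell line, and the values are log2 expression values. The CREB3L1 group is 3 samples of LN4D6 cells transfected with CREB3L1, and the other group is 3 samples of untransfected LN4D6 cells. No empty-vector transfection is among the samples used here, so an effect of transfection itself and an effect of CREB3L1 cannot be told apart. Whether the transfected cells are a pool or 1 clone is not given in the sources used here.

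D-type cyclins bind CDK4 or CDK6, and the active kinase phosphorylates the retinoblastoma protein, which releases E2F transcription factors and lets the cell enter S phase. The INK4 inhibitors, encoded by Cdkn2a, Cdkn2b and Cdkn2c, bind CDK4 and CDK6 and block the assembly with cyclin D. The CIP/KIP inhibitors, encoded by Cdkn1a and Cdkn1b, bind cyclin-CDK complexes and inhibit CDK2 above all. CREB3L1 is a transcription factor anchored in the membrane of the endoplasmic reticulum, whose cleaved form has been reported to stop proliferation through genes such as Cdkn1a. The comparison therefore asks whether transcripts of these inhibitors, and of the cyclins and kinases they act on, differed in cells transfected with CREB3L1.

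No member passed the test with all 6 arrays. Closest to the threshold were 1 probe set of Ccnd1, with a positive difference, and 1 of Cdkn1b, with a negative one. Probe sets of 6 genes, Cdkn1a, Cdkn1b, Cdkn2c, Ccnd1, Ccnd3 and Cdk4, were at or above a log2 value of 5 in at least 1 group, the level taken as background. Those of Cdkn2a, Cdkn2b, Ccnd2 and Cdk6 were below it on every array. By limma, with an adjusted p below 0.05 as the threshold, 0 of the 15 probe sets were called higher and 0 called lower in the CREB3L1 group. The same rule called 0.425% of all probe sets higher and 0.963% lower. At an unadjusted p below 0.05, 1 member probe set was higher, against 4.17% of all probe sets, and 1 was lower, against 5.49%. These were a probe set of Ccnd1 and a probe set of Cdkn1b, and the other probe sets of both genes had an adjusted p of 0.9998. The groups did not overlap for 2 member probe sets in the higher direction, against 6.52% of all, and for 1 in the lower direction, against 7.75% of all. The median difference over the 15 was 0.04 on the log2 scale, and -0.01 over all probe sets.

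One array bears on many of these values. CREB3L1 replicate 3 stood apart, with a 3' minus 5' gap of 4.77 for the Gapdh control probe sets, against -0.16 to -0.10 on the other 5 arrays. Its 18 bacterial and phage hybridisation control probe sets, which read RNAs added in fixed amounts, were higher by 0.93 to 2.88 than on the highest other array, while those 5 arrays spanned at most 0.22. For the 10 member probe sets not below background, the median absolute distance of replicate 3 from the mean of CREB3L1 replicates 1 and 2 was 0.34, against 0.07 between replicates 1 and 2. Over all 12072 probe sets not below background that distance was 0.32. Results are therefore given with and without it. The part of this array's RNA or hybridisation in the results was not tested. The probe set of Creb3l1 itself was below background, at 3.38, 3.42 and 3.36 in CREB3L1 cells and 3.34, 3.38 and 3.37 in untransfected cells, and whether it reads the transfected construct is not given in the sources used here. Of the basal and myoepithelial markers, 4 of 6 were above background in both groups, Krt5, Krt14, Tp63 and Acta2, with Krt17 and Myh11 below it. Of 7 luminal and simple epithelial ones 1 was above it, Krt8, with Krt18, Krt19, Epcam, Cdh1, Cldn4 and Cldn7 below it. Above background were also 0 of 4 endothelial markers, 2 of 5 leukocyte markers, Csf1r and Cd14, and 1 of 7 fibroblast markers, Col3a1. Col3a1 was bright, with a mean of 14.72 in CREB3L1 cells and 14.53 in untransfected cells. Of the markers of any cell type, 0 passed the test. In such bulk RNA, fewer cells with a transcript and less of it per cell cannot be told apart.

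**Figure D1:**
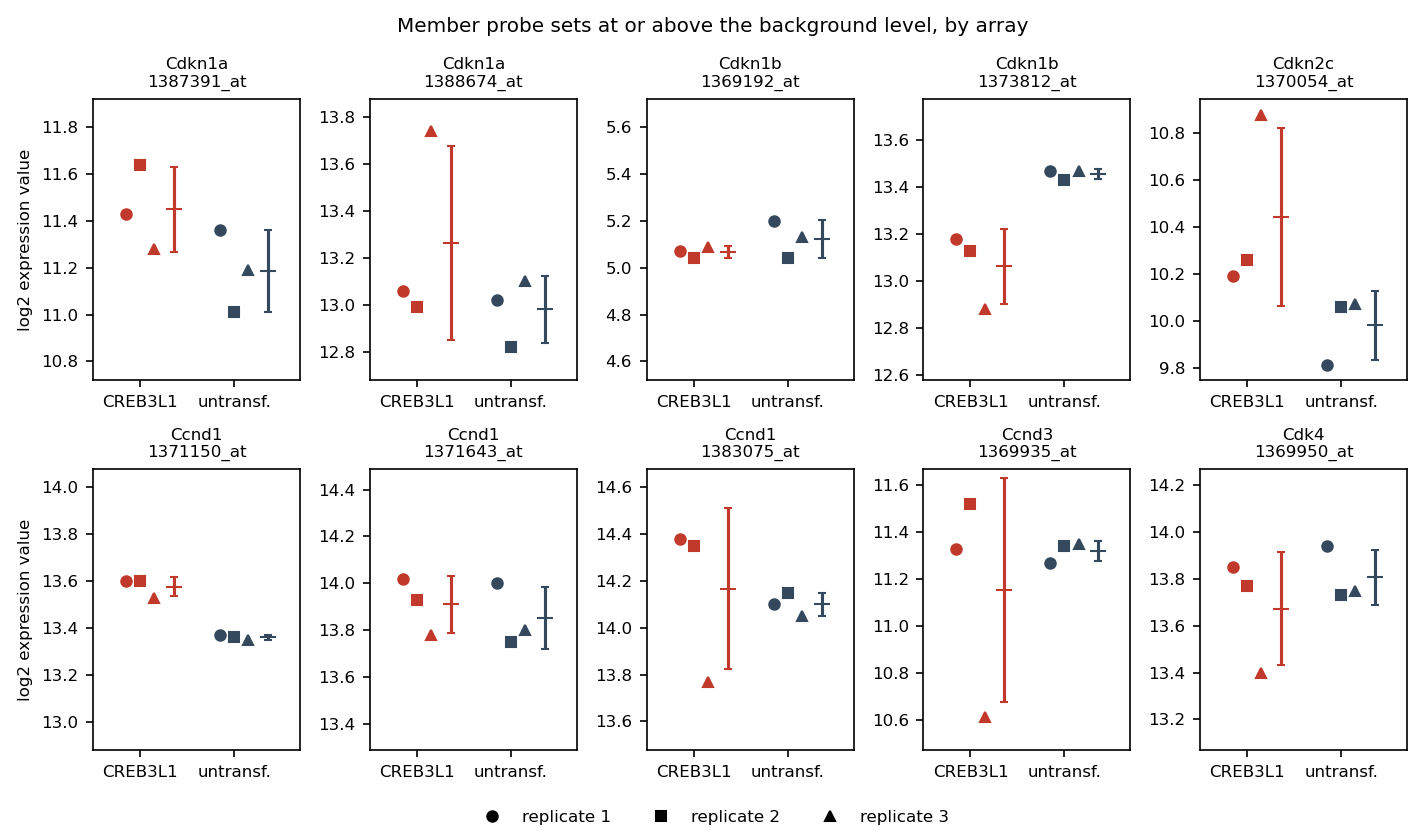
Log2 expression value (vertical axis) of each of the 10 member probe sets not below background, on the 3 CREB3L1 arrays (left, red) and the 3 untransfected arrays (right, dark blue). Each panel spans 1.2 log2 units, symbols mark replicates, and bars are the mean with the SD (n = 3). Ccnd1 1371150_at, Cdkn1b 1373812_at and Cdkn2c 1370054_at have no overlap between groups, and in 6 panels the triangle of CREB3L1 replicate 3 lies outside the range of all the other 5 arrays.

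CREB3L1 is a basic leucine zipper protein of the family that reads sites related to the cyclic AMP response element, TGACGTCA. For this reason the promoters of Cdkn1a, Cdkn1b and Cdkn2b are shown. Of the 10 genes, 7 had an entry in the RefSeq promoter table of build GRCr8, which holds 300 bases of each gene, 250 before and 50 after the annotated start: Cdkn1a, Cdkn1b, Cdkn2a, Cdkn2b, Cdkn2c, Ccnd3 and Cdk4. Printed 5' to 3' along the gene, with capitals for TGACG or its reverse complement CGTCA, are those of Cdkn1a and Cdkn1b, the CIP/KIP genes measured above background, and of Cdkn2b, whose capitals make up a full TGACGTCA. Not printed are the windows of the other inhibitors, Cdkn2a and Cdkn2c, which hold no TGACG on either strand. The Cdkn1a window is chr20:7150682-7150981 on the plus strand, the Cdkn1b window chr4:169491254-169491553 on the plus strand, and the Cdkn2b window chr5:109134806-109135105 on the minus strand.
Cdkn1a: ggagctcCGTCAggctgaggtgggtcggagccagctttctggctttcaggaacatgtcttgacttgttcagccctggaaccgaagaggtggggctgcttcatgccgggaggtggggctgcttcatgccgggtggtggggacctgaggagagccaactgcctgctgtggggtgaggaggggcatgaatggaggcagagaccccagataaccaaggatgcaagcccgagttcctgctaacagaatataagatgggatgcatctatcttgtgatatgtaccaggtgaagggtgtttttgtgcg
Cdkn1b: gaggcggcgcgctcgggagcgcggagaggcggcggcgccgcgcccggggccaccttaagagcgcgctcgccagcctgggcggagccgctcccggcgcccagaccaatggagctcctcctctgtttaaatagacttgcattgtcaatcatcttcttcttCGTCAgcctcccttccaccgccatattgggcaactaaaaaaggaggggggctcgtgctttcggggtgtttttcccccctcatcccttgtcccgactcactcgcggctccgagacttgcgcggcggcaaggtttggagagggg
Cdkn2b: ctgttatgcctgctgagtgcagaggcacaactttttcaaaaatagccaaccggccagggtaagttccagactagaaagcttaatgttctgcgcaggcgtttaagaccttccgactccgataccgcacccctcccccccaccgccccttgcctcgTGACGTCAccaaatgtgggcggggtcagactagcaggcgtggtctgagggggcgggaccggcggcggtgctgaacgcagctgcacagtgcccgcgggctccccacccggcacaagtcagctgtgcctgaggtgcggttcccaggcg

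Motifs were searched on both strands. TGACGTCA was present in 1 of the 7 windows, that of Cdkn2b, and in 1.83% of all 33469 promoters in the table. Its first base lay 96 bases before the start. The shorter TGACG, which each full site also holds, was present in 4 of the 7, those of Cdkn1a, Cdkn1b, Cdkn2b and Ccnd3, and in 21.2% of all promoters. In Cdkn1a it lay 243 bases and in Cdkn1b 92 bases before the start. TGACGTG and the endoplasmic reticulum stress element, CCAAT and CCACG with 9 bases between them, were in 0 of the 7 windows, against 1.81% and 0.0657% of all promoters. The E-box CACGTG was in 1 of the 7, that of Cdk4, with 3 copies, against 6.42% of all promoters. The GC box GGGCGG was in 6 of the 7, all but Cdkn1a, against 33.1% of all promoters, and CCAAT was in those of Cdkn1b and Ccnd3, against 37.5%. The 7 windows held 56.7% to 69% G and C, against a median of 51.7% over all promoters. The shares over all promoters were not adjusted for this base content. A match or its absence describes the letters of these windows and not binding. Each window covers 1 annotated start, and sequence at any other start of the same gene, Cdkn1a included, was not searched. Whether transcripts in LN4D6 cells begin at these annotated starts was not tested. The Cdkn2b window with the full site belongs to a gene whose transcript was below background in both groups, so its arrays give no readable level to set beside it.

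Cdkn1a encodes p21, the inhibitor that p53 induces. Its probe set 1387391_at read 11.43, 11.64 and 11.28 in CREB3L1 cells, against 11.36, 11.01 and 11.19 in untransfected cells. CREB3L1 replicates 1 and 2 were above all untransfected arrays, while replicate 3 lay within their range, so the groups overlapped. The difference was 0.26 ± 0.13 on the log2 scale (SE, n = 3 per group), with a 95% interval of -0.07 to 0.59, and did not pass the test (adjusted p = 0.704). The second probe set, 1388674_at, read 13.06, 12.99 and 13.74 in CREB3L1 cells and 13.02, 12.82 and 13.10 in untransfected cells. Here replicate 3 was the highest of all arrays and the other CREB3L1 arrays lay within the untransfected range, which is the opposite of the first probe set. Its difference was 0.29 ± 0.22, with an interval of -0.27 to 0.84 (adjusted p = 0.996). The upper end of the second interval corresponds to 1.79-fold. When CREB3L1 replicate 3 was left out, the 2 differences were 0.35 ± 0.12 (adjusted p = 0.285) and 0.05 ± 0.09 (adjusted p = 0.999). The interval of the first was then 0.03 to 0.66. Both probe sets thus had a positive difference with and without that array, and neither passed the test.

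Cdkn1b encodes p27, the inhibitor that accumulates in cells without mitogens. Its bright probe set, 1373812_at, read 13.18, 13.13 and 12.88 in CREB3L1 cells, against 13.47, 13.43 and 13.47 in untransfected cells. Every CREB3L1 array was below every untransfected array. The difference was -0.39 ± 0.08, a ratio of 0.763 with an interval of 0.659 to 0.883, and it missed the threshold over all probe sets (adjusted p = 0.149). The difference was smaller, -0.30 ± 0.04, when replicate 3 of that group, the lowest of the 6 arrays, was left out, and then passed the test (adjusted p = 0.0193). It passed in 2 of 14 alternatives, and in the other 12 the adjusted p was 0.0826 to 0.427. The second probe set, 1369192_at, was close to the background level, with 5.07, 5.04 and 5.09 in CREB3L1 cells and 5.20, 5.04 and 5.13 in untransfected cells. The groups overlapped there and the difference was -0.06 ± 0.05 (adjusted p = 0.9998). The direction of Cdkn1b on its bright probe set was thus the opposite of that of Cdkn1a.

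Of the 3 INK4 members, Cdkn2c, which encodes p18, was measured above background. Its probe set 1370054_at read 10.19, 10.26 and 10.88 in CREB3L1 cells, against 9.81, 10.06 and 10.07 in untransfected cells. All CREB3L1 arrays were above all untransfected arrays. The difference of 0.46 ± 0.20 was the largest in size of the 15, with an interval of -0.05 to 0.98, and did not pass the test (adjusted p = 0.605). It was 0.25 ± 0.09 without CREB3L1 replicate 3, the highest array, with an interval of 0.01 to 0.48 (adjusted p = 0.317). A second Cdkn2c probe set, 1378711_x_at, lay between 0.63 and 0.86 on all arrays, below background.

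The other INK4 members, Cdkn2a and Cdkn2b, gave no readable level. Cdkn2a, which encodes p16 and, from another reading frame, ARF, was at 1.94, 1.89 and 1.93 in CREB3L1 cells and 1.90, 1.93 and 1.95 in untransfected cells. Cdkn2b, which encodes p15 and lies beside Cdkn2a on chromosome 5 with 1 predicted gene between them in the RefSeq order, was at 2.43, 2.41 and 2.49 in CREB3L1 cells and 2.36, 2.39 and 2.47 in untransfected cells. Both groups of both genes overlapped. No fold is given for values below background, and a low reading of 1 probe set does not show that the gene is silent.

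Ccnd1, the cyclin D gene with the most probe sets, came closest to the threshold on 1 of them. Probe set 1371150_at read 13.60, 13.60 and 13.53 in CREB3L1 cells, against 13.37, 13.36 and 13.35 in untransfected cells. The groups did not overlap, and the spread within each was small, with an SD of 0.04 and 0.01. The difference was 0.22 ± 0.03, or 1.16-fold with an interval of 1.10 to 1.23 (adjusted p = 0.0580). It was 0.24 ± 0.03 without CREB3L1 replicate 3 and passed the test (adjusted p = 0.0265), as it did after quantile normalization of all 6 arrays (adjusted p = 0.0220) and with array weights (adjusted p = 0.00657). In the other 10 of 13 alternatives it did not pass, with an adjusted p of 0.0619 to 0.272.

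The other probe sets of Ccnd1 differed from the first on CREB3L1 replicate 3. Probe set 1383075_at read 14.38, 14.35 and 13.77 in CREB3L1 cells and 14.10, 14.15 and 14.05 in untransfected cells. CREB3L1 replicates 1 and 2 were above all untransfected arrays and replicate 3 was below them all. With 6 arrays the difference was 0.07 ± 0.17 (adjusted p = 0.9998), and without replicate 3 it was 0.27 ± 0.04 and passed the test (adjusted p = 0.0432). Probe set 1371643_at read 14.02, 13.93 and 13.78 in CREB3L1 cells and 14.00, 13.75 and 13.80 in untransfected cells, with overlap. Its difference was 0.06 ± 0.09 with 6 arrays (adjusted p = 0.9998) and 0.12 ± 0.09 without replicate 3 (adjusted p = 0.741). The mean of all Ccnd1 probe sets differed by 0.11 ± 0.09 with 6 arrays (adjusted p = 0.804 by limma over gene means).

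Ccnd3 was measured above background and Ccnd2 was not. Ccnd3 read 11.33, 11.52 and 10.61 in CREB3L1 cells, against 11.27, 11.34 and 11.35 in untransfected cells. CREB3L1 replicate 3 was the lowest array and replicate 2 the highest, so the 3 CREB3L1 arrays spanned the whole untransfected range. The difference was -0.16 ± 0.24 with 6 arrays (adjusted p = 0.9998) and 0.11 ± 0.07 without replicate 3 (adjusted p = 0.696), so its sign turned with that array. Ccnd2 stayed between 2.12 and 2.29 on all arrays.

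Cdk4, the kinase gene measured above background, read 13.85, 13.77 and 13.40 in CREB3L1 cells, against 13.94, 13.73 and 13.75 in untransfected cells. CREB3L1 replicate 3 was the lowest array and the others overlapped. The difference was -0.13 ± 0.14, with an interval of -0.47 to 0.21 (adjusted p = 0.9998), and without replicate 3 it was 0.01 ± 0.08. Cdk6, read by 1 probe set, lay between 2.13 and 2.21 on all arrays, below background.

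**Figure D2:**
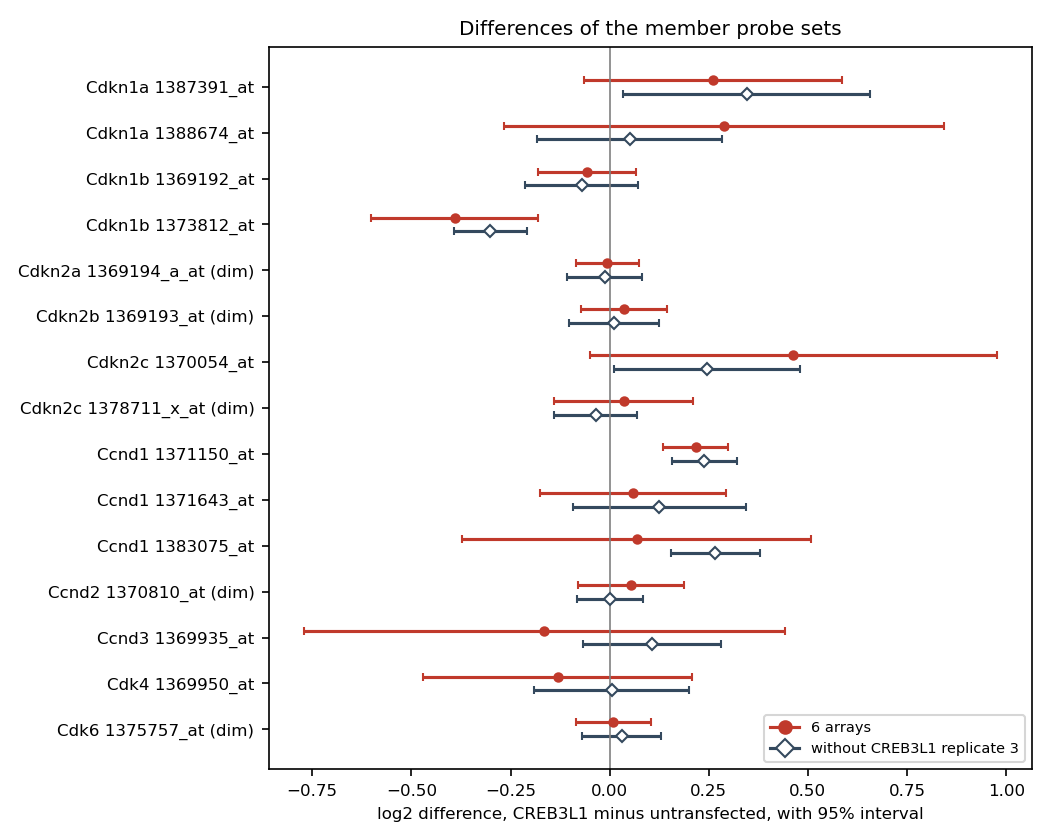
Log2 difference, CREB3L1 minus untransfected (horizontal axis), of each of the 15 member probe sets with its 95% interval from limma, with all 6 arrays (red circles) and without CREB3L1 replicate 3 (open diamonds); probe sets marked dim were below background in both groups. The intervals of Ccnd1 1371150_at and Cdkn1b 1373812_at lie on opposite sides of 0 in both fits. Those of Ccnd1 1383075_at, Cdkn1a 1387391_at and Cdkn2c 1370054_at leave 0, on the positive side, only without that array. Of these, Ccnd1 1383075_at alone then passed the test.

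Without CREB3L1 replicate 3, 2 of the 15 member probe sets were higher, both of Ccnd1, where 1.54% of all probe sets were, and 1 was lower, of Cdkn1b, where 2.44% were. The median over the 15 was 0.03 in that fit and 0.00 over all probe sets. With 1 probe set per gene, Ccnd1 (by 1383075_at) was higher and Cdkn1b lower among the 10 genes in that fit, against 2.02% and 3.70% of all genes. With 6 arrays 0 of the 10 passed, against 0.577% of all genes higher and 1.52% lower. The distance of replicate 3 from replicates 1 and 2 had no common sign among members. It was 0.72 for Cdkn1a 1388674_at and 0.65 for Cdkn2c 1370054_at, and -0.59 for Ccnd1 1383075_at and -0.81 for Ccnd3. Within Cdkn1a the 2 probe sets departed in opposite directions, 0.72 and -0.25.

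**Figure D3:**
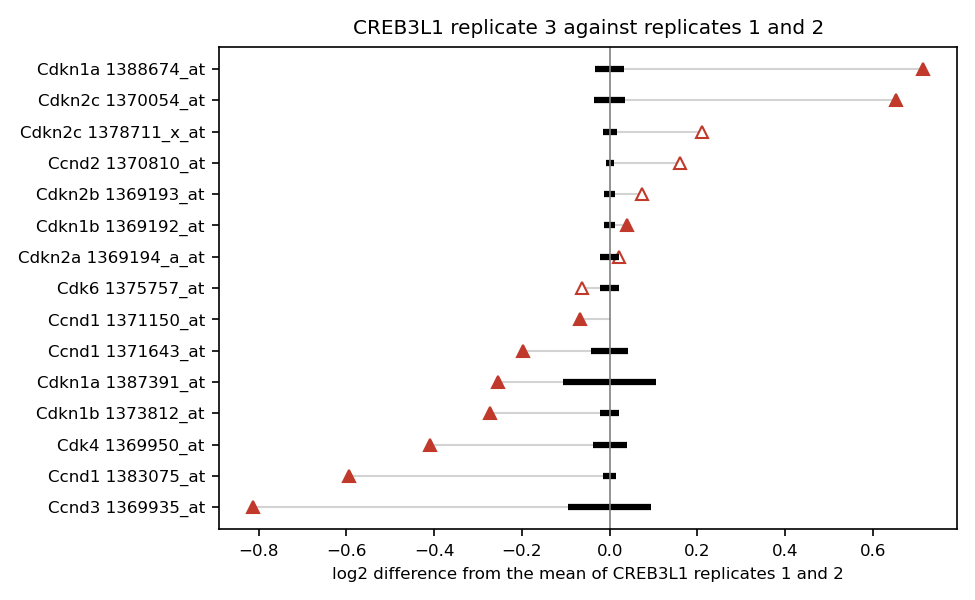
Log2 distance of CREB3L1 replicate 3 from the mean of CREB3L1 replicates 1 and 2 (triangles, horizontal axis) for the 15 member probe sets, filled where the probe set was not below background. Black bars centred on 0 have the length of the gap between replicates 1 and 2. The triangles run from -0.81 for Ccnd3 to 0.72 for Cdkn1a 1388674_at, and all but that of the dim Cdkn2a probe set lie outside their bars.

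By the root mean square distance between log2 values centred on their own mean over the 6 arrays, the genes most like Ccnd1 1371150_at among 7713 others not below background were Coa5 (0.02), Ppid (0.02) and Ift74 (0.03). Coa5 read 10.90, 10.94 and 10.81 in CREB3L1 cells and 10.69, 10.68 and 10.64 in untransfected cells. Their differences, 0.21, 0.22 and 0.21, are near that of the Ccnd1 probe set because the genes were picked for this likeness. None of them passed the test (adjusted p = 0.132, 0.140 and 0.0777).

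Genes that act beside or below the members were described in lists, with 1 probe set per gene. Over all 14217 genes, 0.577% were higher and 1.52% lower with 6 arrays, 2.02% were higher and 3.70% lower without CREB3L1 replicate 3, and the median difference was -0.01 with 6 arrays and 0.00 without that array. Of 12 measured RB and E2F genes, 0 were higher and 1 was lower, with a median of 0.01. The gene that fell was E2f6, an E2F family member that represses transcription without binding the retinoblastoma protein. It read 9.22, 9.10 and 9.11 in CREB3L1 cells, against 9.60, 9.56 and 9.53 in untransfected cells, without overlap. The difference was -0.42 ± 0.05 (adjusted p = 0.0216), and -0.40 ± 0.05 without replicate 3 (adjusted p = 0.0211). The adjusted p was 0.0935 to 0.121 when CREB3L1 replicate 2 or any untransfected array was left out, 0.213 with a mean-variance trend and 0.0964 without moderation.

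Of 9 genes of cyclin E, cyclin A, CDK2 and CDK activation, 0 passed the test, with a median of 0.03. Ccne2, a cyclin E gene, gave 0.15 ± 0.05 (adjusted p = 0.339) and Cdc25a, the phosphatase that activates CDK2, 0.32 ± 0.16 (adjusted p = 0.695), and 0.15 ± 0.07 when CREB3L1 replicate 3 was left out (adjusted p = 0.424). The remaining INK4 and CIP/KIP genes did not pass either. Cdkn2d, which encodes p19 of the INK4 family, gave 0.20 ± 0.09 (adjusted p = 0.595) and -0.63 ± 0.57 on its second probe set (adjusted p = 0.9998). When that array was left out these were 0.11 ± 0.05 (adjusted p = 0.453) and 0.03 ± 0.10 (adjusted p = 0.999), so the second changed sign. Cdkn1c, which encodes p57, was below background. Among 9 genes of the turnover of cyclin D and the inhibitors 0 passed, with a median of -0.06 with 6 arrays and 0.02 without that array. Cul1 and Rbx1, subunits of the ubiquitin ligase that degrades p27, gave 0.21 ± 0.11 and -0.06 ± 0.04 (adjusted p = 0.744 and 0.879). Cul1 was at 0.10 ± 0.06 without that array (adjusted p = 0.657). A second Rbx1 probe set gave -0.42 ± 0.17 with 6 arrays (adjusted p = 0.532) and -0.24 ± 0.08 without it (adjusted p = 0.231).

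Of 19 measured genes of the p53 axis, which governs Cdkn1a, 0 were higher and 1 was lower with 6 arrays, and the median was 0.01. Ddb2, a DNA damage recognition gene, read 7.85, 7.59 and 7.52 in CREB3L1 cells, against 8.96, 8.84 and 8.73 in untransfected cells, far from overlapping. The difference was -1.19 ± 0.11 (adjusted p = 0.0127), while a second Ddb2 probe set was below background in both groups. Its adjusted p was 0.0506 to 0.0823 when CREB3L1 replicate 2 or any untransfected array was left out, and 0.0964 without moderation. In the fit of the other 5 arrays, 5 genes of this list were higher and 2 lower. Named after their values were seen, the higher ones were Plk2 (1.03 ± 0.08), Fas (0.86 ± 0.04), Aen (0.57 ± 0.06), Perp (0.27 ± 0.04) and Zmat3 (0.24 ± 0.03). The lower ones were Ddb2 (-1.12 ± 0.10) and Sesn2 (-0.85 ± 0.12). With 6 arrays the differences of those not called were 0.81 ± 0.21 for Plk2 (adjusted p = 0.222), 0.55 ± 0.27 for Fas (adjusted p = 0.695), 0.74 ± 0.15 for Aen (adjusted p = 0.141), 0.12 ± 0.13 for Perp (adjusted p = 0.9998), 0.37 ± 0.11 for Zmat3 (adjusted p = 0.333) and -0.51 ± 0.31 for Sesn2 (adjusted p = 0.872). A second Perp probe set above background gave 0.47 ± 0.10 with 6 arrays (adjusted p = 0.152) and, without that replicate, 0.51 ± 0.11 (adjusted p = 0.0920). These genes are known as p53 targets of various functions, among them a polo-like kinase, a death receptor and a nuclease.

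Of 27 measured transcription factors and chromatin proteins known to regulate the member genes, 0 were higher and 1 was lower, with a median of 0.00. Ets2, an ETS factor, read 9.76, 9.82 and 9.69 in CREB3L1 cells, against 10.16, 10.19 and 10.17 in untransfected cells, without overlap. The difference was -0.42 ± 0.04 (adjusted p = 0.0190), and the adjusted p was 0.0528 to 0.109 when any 1 array other than CREB3L1 replicate 3 was left out. It was 0.188 with a mean-variance trend and 0.0824 without moderation. In the fit of the other 5 arrays, Klf4 (0.34 ± 0.05, adjusted p = 0.0347) and Jun (0.34 ± 0.05, adjusted p = 0.0407) were higher and Ets2 lower. With 6 arrays Klf4 gave 0.27 ± 0.07 (adjusted p = 0.256) and Jun -0.17 ± 0.44 (adjusted p = 0.9998). Of 2 other Jun probe sets, 1 gave 0.37 ± 0.12 with 6 arrays (adjusted p = 0.348) and the other -0.17 ± 0.40 (adjusted p = 0.9998). Without CREB3L1 replicate 3 the first of these gave 0.26 ± 0.07 (adjusted p = 0.177). The other then gave 0.29 ± 0.05 and passed the test (adjusted p = 0.0483). Klf4 encodes a factor that induces Cdkn1a, and Jun an AP-1 subunit that acts on Ccnd1, and both were named after their values were seen.

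Genes that E2F activates or that mark proliferating cells did not pass the test. Of 19 measured, 0 were higher and 0 lower, 12 had a positive and 7 a negative difference, and the median was 0.11. At an unadjusted p below 0.05, 4 were higher and 0 lower, against 6.05% and 7.99% of all genes. By the same measure 5 of the 19 p53 axis genes were higher and 1 lower. Of the 12 RB and E2F genes 1 was higher and 3 lower, and each remaining list had at most 1 in either direction. Mcm4, a subunit of the replicative helicase, read 13.83, 13.90 and 13.82 in CREB3L1 cells and 13.68, 13.67 and 13.73 in untransfected cells. Mki67, which encodes the proliferation marker Ki-67, read 14.89, 14.98 and 15.01 in CREB3L1 cells and 14.64, 14.60 and 14.82 in untransfected cells. In both genes all CREB3L1 arrays were above all untransfected arrays, as in 6.52% of all probe sets. They were named for the smallest p of the 19, so this separation is not independent of the choice. Mcm4 differed by 0.16 ± 0.04 (adjusted p = 0.182) and Mki67 by 0.27 ± 0.07 (adjusted p = 0.224). Over the 19 genes the median was 0.06 in the fit of the other 5 arrays, and 0 were called in either direction.

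**Figure D4:**
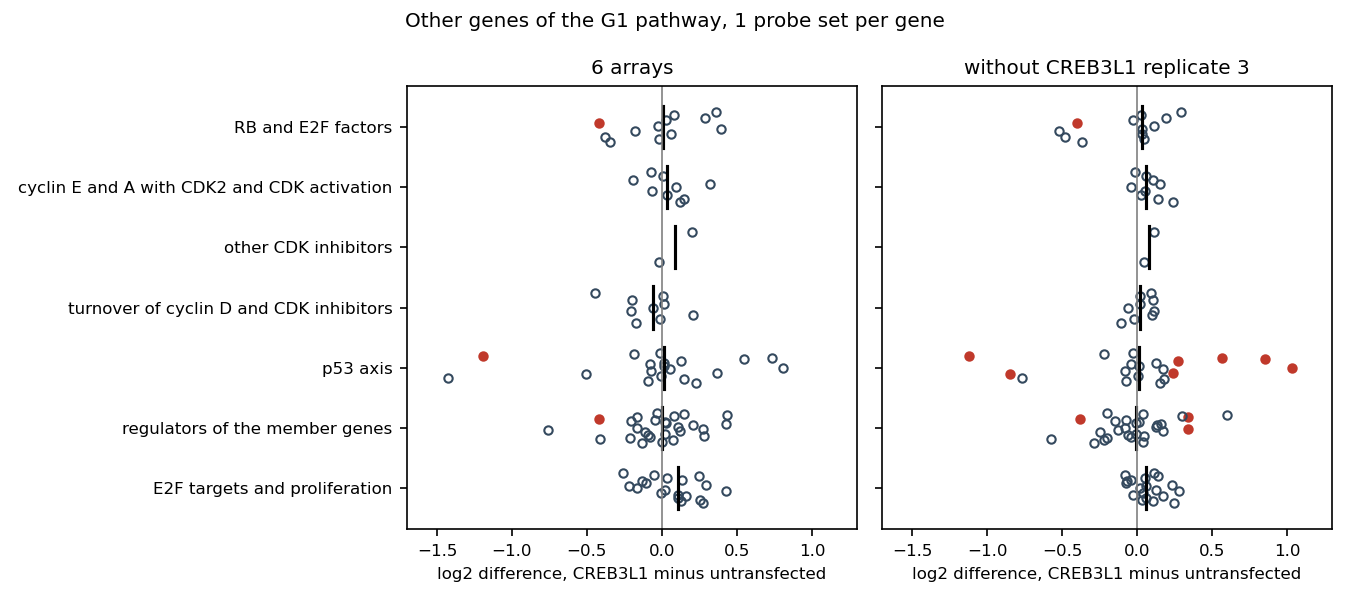
Log2 difference, CREB3L1 minus untransfected (horizontal axis), of each measured gene of the 7 lists (down the page), with 6 arrays (left panel) and without CREB3L1 replicate 3 (right panel). Filled red points passed the test and black bars are list medians. With 6 arrays E2f6, Ddb2 and Ets2 are filled, all to the left of 0. Without that array 7 points to the right of 0 are filled as well, 5 of them in the p53 axis. Sesn2, also of the p53 axis, is then filled to the left of 0.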

How the data were processed

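Transcript levels were measured on Affymetrix 3' expression arrays in 3 CREB3L1 and 3 untransfected samples of LN4D6 cells. The authors deposited 1 log2 value per probe set and array. Per the submitters' processing notes, these come from RMA, run in Partek 6.6, and their range (0.27 to 16.9) gave the log base. The sources used here do not give RMA's settings. The table has 31099 probe sets, of which the 57 controls stayed out of the test, leaving 31042. Names came from GEO's platform annotation (20826 probe sets with 1 symbol, 436 with several, 9780 with none), and all 10 member symbols matched the RefSeq table of GRCr8. A gene is represented by its brightest probe set. There are no detection calls, so a log2 value of 5 served as background.

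The comparison used lmFit and eBayes of limma 3.58.1 (R 4.3.3), two-sided, with Benjamini-Hochberg adjustment over all probe sets and a threshold of 0.05, and intervals are at 95%. The fit was tested on simulated data. The labels do not state that replicates are separate cultures, and p-values then measure only the spread among these 6 samples, which may be technical. No arrays were duplicates (at most 10 equal values), and the number of arrays limits precision. All members and lists were chosen with earlier results of these data known. Named genes are all member probe sets, up to 4 called genes per list (or the 2 with the smallest p), Creb3l1, and the 3 genes nearest in pattern to the member with the smallest p. Cell type markers come from their lists. Further p53 axis and regulator genes called without CREB3L1 replicate 3, and the other cyclin and CDK genes, were named after their values were seen. Alternatives were 2 normalizations, a filter on dim probe sets, 3 variance models, array weights, each array left out, gene means and background levels of 4 and 6.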

Additional observations from a re-analysis of the deposited data

Results flagged for a closer look

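Among control probe sets outside the comparison, the one for 5S ribosomal RNA read 6.87, 7.82 and 6.63 in CREB3L1 cells, against 5.15, 5.37 and 4.62 in untransfected cells. The lowest CREB3L1 array was 1.26 above the highest untransfected array, and this signal was noted because it lies in data that the comparison did not use.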

How the results depend on the processing

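No paired analysis was possible because replicates of the groups carry no common numbers in the labels. The 3' minus 5' gap of the dap control was 3.43, 2.33 and 7.31 on CREB3L1 replicates 1 to 3, against 3.38, 2.37 and 4.48 on untransfected replicates 1 to 3, numbered by deposit order alone, and whether samples were prepared in pairs was not tested. With 6 arrays, 132 probe sets were higher and 299 lower. Leaving out 1 array gave 28 to 479 higher and 116 to 756 lower, the highest counts being those without CREB3L1 replicate 3. Array weights gave 600 and 952, the mean-variance trend 79 higher, and the test without moderation 9 and 65. Of the 15 member probe sets, array weights called 1 higher and 1 lower and quantile normalization 1 higher, against 0 and 0 as reported, and leaving out 1 array gave 0 to 2 higher and 0 to 1 lower. By gene, array weights called 1 member lower, and leaving out 1 array gave 0 to 1 higher and 0 to 1 lower. Of the genes in the other lists, where 0 were higher and 3 lower, array weights called 7 higher, the trend 1 lower and the test without moderation 0 lower, and leaving out 1 array gave 0 to 7 higher and 0 to 4 lower. The cause of these shifts was not tested. Directions turned for several differences, among them those of Cdkn2d, Ccnd3 and Cdk4, which were 0.20, -0.16 and -0.13 with 6 arrays. Quantile normalization gave 0.11 for Cdkn1b 1369192_at and 0.0022 for Cdkn2a, and median centring 0.0049 for Cdkn2a. Array weights gave -0.00076 for Cdkn2b, -0.036 for Cdkn2c 1378711_x_at, 0.11 for Ccnd3 and 5.4e-05 for Cdkn1c, and the mean of a gene's probe sets -0.21 for Cdkn2d. With 1 array left out, the differences ran over -0.018 to 0.0086 for Cdkn2a, -0.035 to 0.079 for Cdkn2c 1378711_x_at, -0.038 to 0.27 for Ccnd1 1383075_at, -0.35 to 0.11 for Ccnd3, -0.22 to 0.0051 for Cdk4, -0.012 to 0.030 for Cdk6 and -0.079 to 0.044 for Cdkn1c. Alternatives for Cdkn3 were chosen after seeing the data. A background level of 6 put 6 member probe sets below it, against 5 at levels of 4 and 5.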

Other observations

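Of 37 other measured cyclin, CDK and CDK-associated genes, taken by symbol after the data were seen, 30 were above background in at least 1 group. With 6 arrays 1 was higher and 0 were lower, by limma over all probe sets, against 0.577% and 1.52% of all genes, and the median difference was 0.01. The gene that rose was Cdkn3, which encodes a phosphatase that binds CDK2 and takes a phosphate off it and is, despite its symbol, of neither inhibitor family above. Cdkn3 read 11.77, 11.60 and 11.68 in CREB3L1 cells, against 11.08, 10.99 and 10.98 in untransfected cells, and CREB3L1 replicate 3 lay between the other CREB3L1 arrays. The difference was 0.67 ± 0.06 (adjusted p = 0.0116). It passed in 10 of 14 alternatives, and the adjusted p ranged over 0.0126 to 0.0807 with 1 array left out. The call was lost without any 1 untransfected array and, in a test without moderation, at an adjusted p of 0.0777.

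Without CREB3L1 replicate 3, 2 of these genes were higher and 3 lower, against 2.02% and 3.70% of all genes. Besides Cdkn3, Ccnj was higher, and Cdk16, Ccng2 and Cdk18 were lower, all named after their values were seen. Ccng2, which encodes cyclin G2, known to be raised in cells that leave the cycle, read 11.62, 11.49 and 11.14 in CREB3L1 cells and 11.92, 12.05 and 12.14 in untransfected cells. Its difference was -0.62 ± 0.14 with 6 arrays (adjusted p = 0.162) and -0.48 ± 0.08 without that replicate (adjusted p = 0.0425). Cdk16 gave -0.85 ± 0.14 (adjusted p = 0.0683) and -0.96 ± 0.11 without the replicate (adjusted p = 0.0184).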
